A study of Mus musculus with 8 samples.

Results

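HECT ubiquitin ligases and the E2 enzymes that charge them were examined in hepatic stellate cells, which store vitamin A and turn into collagen-producing cells in liver injury, after loss of AREL1, itself a ligase of the HECT type. The genes were taken from a list of 28, made of 23 HECT ligases other than Arel1 and 5 E2 genes, and were found by matching symbols to the Ensembl identifiers of the count tables. Of these 28, 2 had a row among the 1933 gene rows that the tables share, namely the HECT ligase genes Trip12 (ENSMUSG00000026219) and Hecw2 (ENSMUSG00000042807). The other 26 genes (21 HECT ligases and the 5 E2 genes Ube2l3, Ube2d1, Ube2d2a, Ube2d3 and Ube2l6) were not analysed here, and nothing below describes them. Both genes found lie on chromosome 1, as do all 1830 rows that have a gene in the GENCODE M21 annotation, and no other gene of the list is annotated there.

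The AREL1HSC-KO group held 4 libraries from mice with AREL1 deleted in stellate cells, and the AREL1fl/fl group held 4 libraries from mice that carry the floxed gene. The mice of both groups were male, were fed a Western diet (21% fat, 20% protein, 50% carbohydrate) from 4 weeks of age for 20 weeks, and were analysed in week 24, when the livers had the metabolic steatohepatitis named in the labels. The labels give neither the promoter that drives the deletion nor the number of mice behind each library. Each p-value below therefore rests on library-to-library spread, part of which may be technical. The groups were taken from the sample titles. In 3 of the 4 AREL1HSC-KO samples the genotype field has another digit in the gene name. The reads of Arel1 itself were not analysed here, so the deletion was not checked and each group is called by its label.

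In ubiquitination an E1 enzyme activates ubiquitin, an E2 enzyme carries it, and an E3 ligase transfers it to a substrate. HECT ligases differ from RING ligases in that ubiquitin is first bound to a cysteine of the HECT domain itself and only then passed to the substrate. TRIP12 is a nuclear HECT ligase known from human cells for the degradation of ubiquitin fusion proteins, for ubiquitination of the tumour suppressor ARF and for limiting RNF168 at DNA breaks. HECW2, also called NEDL2, belongs to the NEDD4 family, whose members carry WW domains that bind proline-rich motifs, and in human cells it is known to stabilise the p53 relative p73.

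Gene-assigned reads numbered 19271004 to 25165289 in AREL1HSC-KO libraries and 17619387 to 19663030 in AREL1fl/fl libraries, and the gene rows of each table held 3.2% to 3.28% of them. Unmapped reads made up 1.442% to 1.575% in AREL1HSC-KO and 1.039% to 1.193% in AREL1fl/fl, without overlap. Of 23 genes listed for stellate cells 2 had a row, the collagen gene Col3a1 and the mesenchymal transcription factor gene Prrx1, neither of which defines stellate cells, so the label of the cell type was not checked on Lrat, Des or Reln. Levels are given in CPM, the read count of a gene scaled to 1e6 gene-assigned reads after TMM adjustment of the library total. Col3a1 stood at 437.9 to 439.8 CPM in AREL1HSC-KO against 470.4 to 506.1 CPM in AREL1fl/fl, and Prrx1 at 25.05 to 30.44 CPM against 30.56 to 35.51 CPM. Of 3 hepatocyte genes with a row, F5 and C4bp had 0 reads in all libraries, and Serpinc1 reached 0.6623 CPM in AREL1HSC-KO and 0.6269 CPM in AREL1fl/fl. The 6 lymphocyte genes with a row summed to 12 reads in AREL1HSC-KO and 16 reads in AREL1fl/fl, Ctla4 and Xcl1 being at 0, and the cholangiocyte gene Pkhd1 had 0 reads in AREL1HSC-KO and 1 read in AREL1fl/fl. The dendritic cell gene Batf3 stood at 2.873 to 3.779 CPM in AREL1HSC-KO and 2.573 to 3.434 CPM in AREL1fl/fl. No gene listed for macrophages or sinusoidal endothelium had a row, so RNA of those cells was not examined. The part of depth, unmapped reads and marker levels in the ligase levels was not tested, and in bulk RNA fewer cells of a type and less RNA per cell cannot be told apart. Replicate 4 of AREL1fl/fl stood apart from the other AREL1fl/fl libraries, with a chi-square per degree of freedom of 3.37 to 3.46 against 1.39 to 1.87 among those others, and results without it are given below.

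Trip12 starts beside a second ubiquitin system gene, Fbxo36, which encodes an F-box protein and runs the opposite way. In the RefSeq promoter table (GRCm38.p6) the start of Trip12 on the minus strand lies 537 bases from that of Fbxo36 on the plus strand. The 250 bases before each start are shown because the levels of both genes are described below, and those of Hecw2 are shown because they belong to the other HECT ligase. The windows are chr1:84839305-84839554 (minus strand) for Trip12, chr1:84839591-84839840 (plus strand) for Fbxo36 and chr1:54195035-54195284 (minus strand) for Hecw2. Capitals mark GC boxes (GGGCGG on either strand).
Trip12: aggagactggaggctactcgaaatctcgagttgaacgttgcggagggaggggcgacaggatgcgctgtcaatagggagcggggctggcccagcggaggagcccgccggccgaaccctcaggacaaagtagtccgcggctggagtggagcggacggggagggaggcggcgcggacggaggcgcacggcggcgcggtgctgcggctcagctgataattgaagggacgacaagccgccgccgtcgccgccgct
Fbxo36: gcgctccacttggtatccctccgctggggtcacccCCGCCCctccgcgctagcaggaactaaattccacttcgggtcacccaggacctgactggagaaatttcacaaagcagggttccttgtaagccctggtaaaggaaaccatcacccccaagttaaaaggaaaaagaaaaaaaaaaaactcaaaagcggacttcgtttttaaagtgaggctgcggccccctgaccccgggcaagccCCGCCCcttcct
Hecw2: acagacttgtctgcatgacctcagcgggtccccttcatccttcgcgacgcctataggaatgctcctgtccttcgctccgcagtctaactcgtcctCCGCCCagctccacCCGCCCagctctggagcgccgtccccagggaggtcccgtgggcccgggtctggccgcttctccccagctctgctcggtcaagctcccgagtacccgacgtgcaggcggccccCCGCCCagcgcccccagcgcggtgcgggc

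The 3 windows differed in composition. The Trip12 window held 32 CpG dinucleotides, more than 95.4% of the 32851 windows of the table, and was 69.2% G or C. The Hecw2 window held 24 CpG (more than 88% of windows, 70% G or C) and the Fbxo36 window 11 CpG (more than 64.4% of windows, 54.4% G or C). The median window had 6. GC boxes occurred 0 times before Trip12, 2 times before Fbxo36 and 3 times before Hecw2, and 32.7% of all windows held at least 1. None of the 3 held CCAAT (in 33.8% of all windows, either strand), TATAAA (12.4%), TGACG (17.8%) or CACGTG (6.02%). These matches describe letters in the windows, and no binding was measured.

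Trip12 was among the more abundant genes of the rows and stood at nearly the same level in both genotypes. Its CPM, scaled with TMM factors, was 402.2, 393.3, 387.9 and 390.0 in AREL1HSC-KO replicates 1 to 4, and 384.5, 370.7, 394.1 and 390.1 in AREL1fl/fl replicates 1 to 4. The groups overlapped, since AREL1fl/fl replicates 3 and 4 lay within the AREL1HSC-KO range. The means were 393.3 ± 6.29 CPM in AREL1HSC-KO and 384.9 ± 10.2 CPM in AREL1fl/fl (SD, n = 4 each). The log2 fold change, AREL1HSC-KO over AREL1fl/fl as in every fold change below, was 0.03 (SE 0.024), and did not pass the test (edgeR quasi-likelihood test, Benjamini-Hochberg adjusted p = 0.304). With TMM scaling the 95% interval of the difference ran from -1.15% to 5.72%, and an exact permutation test of the CPM values gave p = 0.286 (two-sided, smallest possible 0.0286). The spread between libraries was small for these rows, and how much of it is spread between mice is not known. Only 13 of the 420 genes tested had a smaller SE, the coefficient of variation between libraries was 1.6% in AREL1HSC-KO and 2.66% in AREL1fl/fl, and counting error alone gives 1.06% and 1.2% at the mean reads of the same groups.

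Hecw2 was near the limit of detection in both genotypes. It had 16, 17, 22 and 12 reads in AREL1HSC-KO replicates 1 to 4, and 5, 11, 9 and 8 reads in AREL1fl/fl replicates 1 to 4. Summed, these were 67 reads in AREL1HSC-KO (exact 95% Poisson interval 51.9 to 85.1) and 33 reads in AREL1fl/fl (22.7 to 46.3), intervals that cover counting error only. AREL1HSC-KO libraries were also deeper, and after scaling the levels were 0.6545, 0.6623, 1.068 and 0.6156 CPM in AREL1HSC-KO and 0.2573, 0.6269, 0.5203 and 0.4579 CPM in AREL1fl/fl. Replicate 3 of AREL1HSC-KO stood above the rest and replicate 1 of AREL1fl/fl below the rest. The groups overlapped, as replicate 2 of AREL1fl/fl lay above replicate 4 of AREL1HSC-KO. The means were 0.750 ± 0.213 CPM in AREL1HSC-KO and 0.466 ± 0.155 CPM in AREL1fl/fl (SD, n = 4 each). The log2 fold change was 0.68 (SE 0.333), with a 95% interval of the difference from 0.193% to 158%, and it did not pass after adjustment (edgeR p = 0.0491, adjusted p = 0.11; exact permutation test p = 0.0571, two-sided). Hecw2 entered the test through the AREL1HSC-KO libraries, of which 4 were over the filter's level against 1 of AREL1fl/fl, so its entry favours a higher value in AREL1HSC-KO. Without AREL1fl/fl replicate 1 the log2 fold change was 0.47, and without AREL1HSC-KO replicate 3 it was 0.48.

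**Figure D1:**
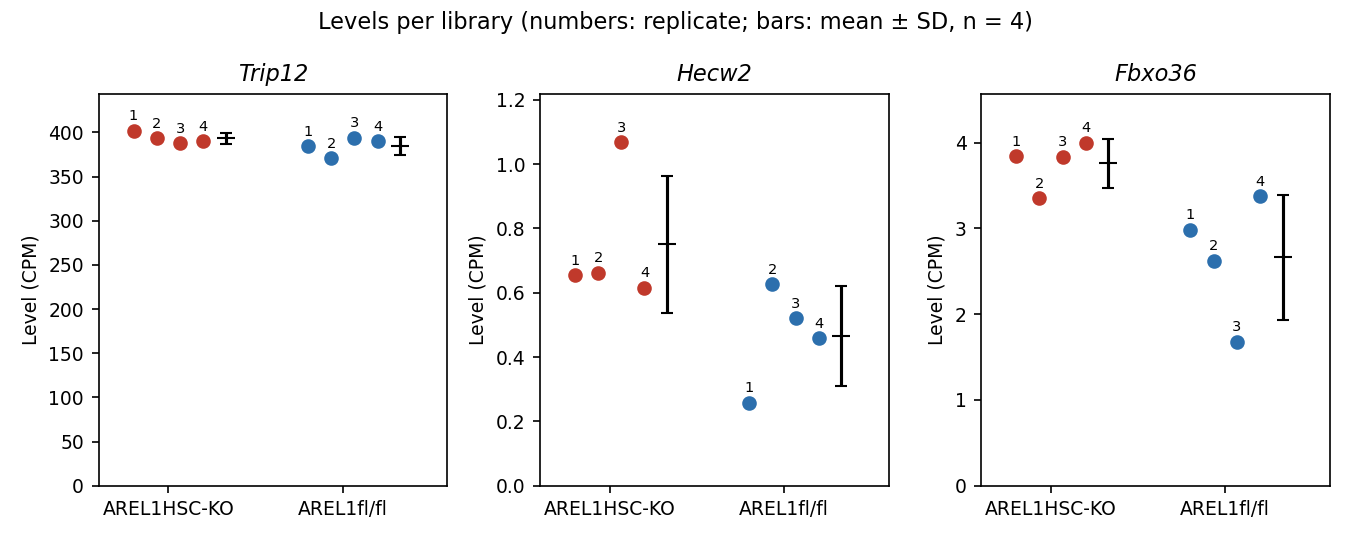
Level of Trip12, Hecw2 and Fbxo36 in CPM (vertical axes, from 0) in each AREL1HSC-KO library (left, red) and AREL1fl/fl library (right, blue), with the replicate number above each point and the mean ± SD of n = 4 as a black bar. The Trip12 points of both groups lie between 370.7 and 402.2 CPM, while Hecw2 stays at or below 1.068 CPM and Fbxo36 overlaps only between 3.351 CPM (AREL1HSC-KO replicate 2) and 3.377 CPM (AREL1fl/fl replicate 4).

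Neither HECT ligase, 0 of 2, thus passed the test with edgeR at an adjusted p under 0.05, where 158 of 420 genes (37.6%) did, and DESeq2 also called 0, where 31.2% of genes passed. At an unadjusted p under 0.05 edgeR gave 1 of the 2, Hecw2, beside 45% of all genes, and DESeq2 gave 0, beside 40%. In neither gene did the libraries of one genotype all lie beyond those of the other, which occurred in 31.4% of the 420 genes. The absolute log2 fold change of Trip12 was smaller than the median over all genes, 0.119, and its rank from high to low was 178 of 420. The log2 fold change of Hecw2 ranked 8 of 420 from the highest, while its level ranked 406 of 420. Hecw2 was kept through its AREL1HSC-KO libraries, as stated above, which favours a high rank and a low p-value in that direction. Neither its rank nor its unadjusted p is therefore read as a rise. Without replicate 4 of AREL1fl/fl, in which Trip12 and Hecw2 stood within the range of the other AREL1fl/fl libraries, the log2 fold changes were 0.04 and 0.68 and the count of calls stayed at 0.

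**Figure D2:**
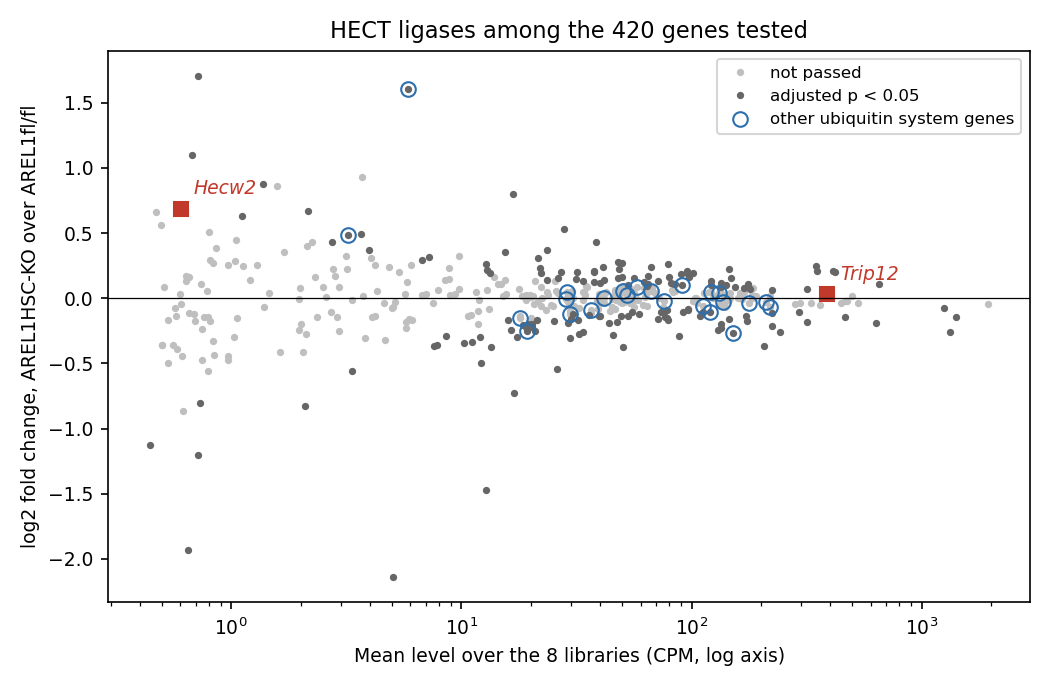
Log2 fold change of AREL1HSC-KO over AREL1fl/fl (vertical axis) against the mean level over the 8 libraries in CPM (horizontal log axis) for the 420 genes tested, with genes past the test in dark grey, others in light grey, other genes of the ubiquitin lists circled in blue and the HECT ligases as red squares. Trip12 sits at the abundant end near 0, and Hecw2 sits at the low end at 0.68.

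The call of Trip12 depended on how libraries were scaled. The TMM factors, estimated from the 420 genes kept, were 1.004 to 1.02 in AREL1HSC-KO and 0.9804 to 0.9955 in AREL1fl/fl, without overlap. With upper-quartile scaling its log2 fold change was 0.083 (edgeR adjusted p = 0.0122), and with library totals alone it was 0.0639 (adjusted p = 0.0376), both past the threshold, over a range of 0.0122 to 0.665 for all settings tried. The median over all genes moved as well, to 0.055 and 0.036, from 0.0034 with TMM. Relative to that median Trip12 stood at 0.0284 with TMM, 0.0285 with upper-quartile scaling and 0.0283 with library totals. A scaling shifts all genes of a library together, so these values have to be nearly equal. Hecw2 passed under none of the 15 settings in which it could be fitted, with adjusted p between 0.0792 and 0.337, and it was too low to be kept in either strand column.

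**Figure D3:**
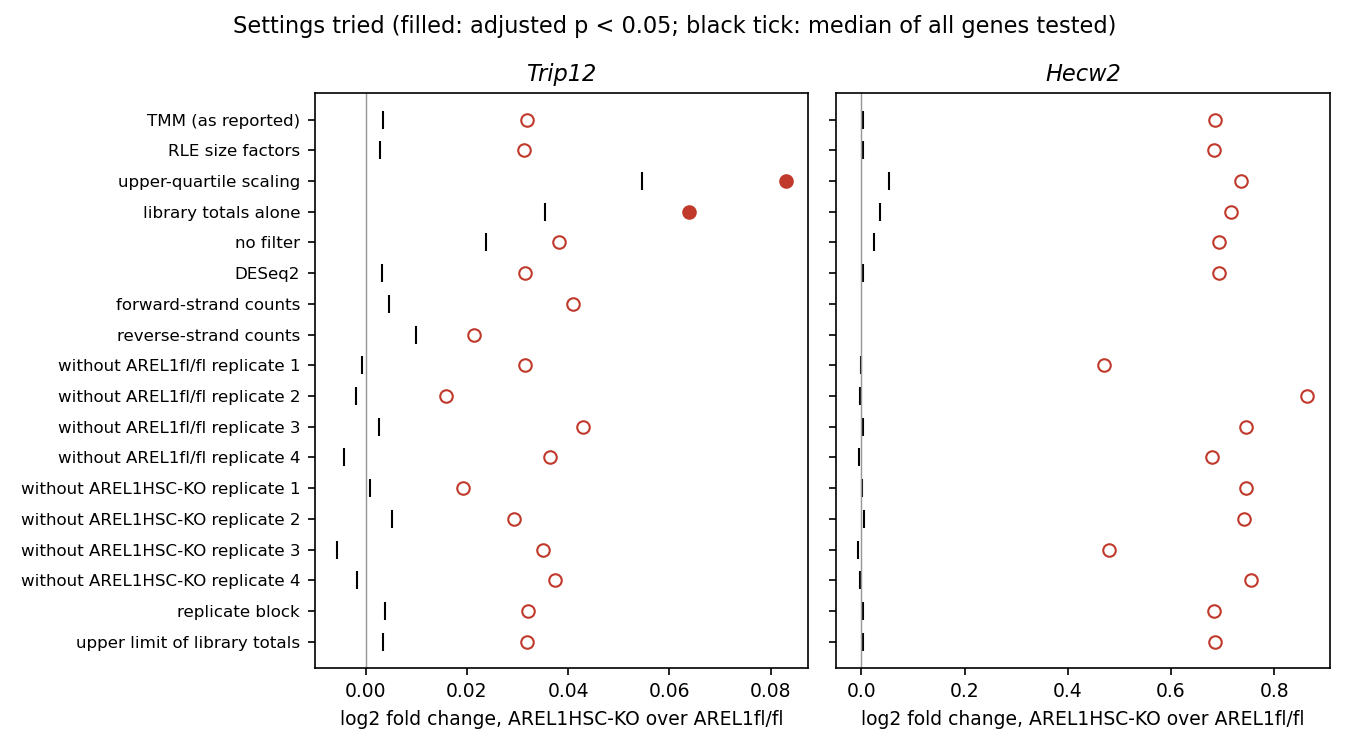
Log2 fold change of AREL1HSC-KO over AREL1fl/fl (horizontal axes) of Trip12 and Hecw2 under each setting (rows), with filled points for an adjusted p under 0.05 and a black tick at the median of all genes tested. Trip12 ranges from 0.0158 to 0.083 and is past the threshold in the 2 settings where the tick also moves furthest to the right, and Hecw2 ranges from 0.47 to 0.864 with no filled point.

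Between the HECT ligases themselves the levels were far apart. Per kilobase of exon in GENCODE M21, Trip12 stood at 23.7 CPM per kb in AREL1HSC-KO and 23.2 CPM per kb in AREL1fl/fl. In that measure Trip12 ranked 59 of the 419 tested genes with a length. Hecw2 stood at 0.0579 CPM per kb in AREL1HSC-KO and 0.036 CPM per kb in AREL1fl/fl and was the lowest of the 419. Rows that the filter left out were not ranked. The level of Trip12 per kb was therefore 409 times that of Hecw2 in AREL1HSC-KO and 645 times in AREL1fl/fl. These ratios are rough, as they rest on 67 and 33 reads of Hecw2 in the same groups. The change of Hecw2 did not pass the test, and the difference between the ratios was not tested. For scale, the cullin scaffold gene Cul3 had 44.1 CPM per kb in AREL1HSC-KO and 46.2 in AREL1fl/fl, and Mdm4, a partner of the p53 ligase MDM2, had 9.26 and 11.1 CPM per kb in the same groups. The annotation that the authors counted with may give other exon lengths.

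Overlap with genes on the opposite strand took few reads from either ligase. Trip12 and Fbxo36 overlap on opposite strands in GENCODE M21. Over all rows, reads fell on both strands about equally in these tables, with 48.6% to 50.9% of Trip12 reads in the forward column. For Fbxo36, which had far fewer reads, that share was lower, 33.7% to 48.8%, and the reason was not tested. A read on exons of genes on both strands is lost from the either-strand count but not from the strand columns, and the strand columns of Trip12 together exceeded its either-strand count by 0 or 1 read per library. For Hecw2 the excess was 0 reads in every library. The predicted genes Gm38374 and Gm37738 inside Trip12 had 2 and 6 reads in AREL1HSC-KO and 2 and 3 reads in AREL1fl/fl, and Mir7681, Gm24251 and Gm37633 inside Hecw2 had 0 reads in all libraries. Of these, Gm38374, Gm37738, Gm24251 and Gm37633 lie on the same strand as the ligase gene, and reads shared with them, which no column counts, were not measured.

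Of the neighbouring or overlapping genes, Fbxo36, Stk17b and Gtf3c3 were kept for the test. Fbxo36 and Stk17b passed, where 37.6% of all 420 genes tested did. Any link to the nearby ligase genes was not tested. Fbxo36 rose in AREL1HSC-KO, with 3.845, 3.351, 3.836 and 4.001 CPM in AREL1HSC-KO replicates 1 to 4 against 2.985, 2.622, 1.677 and 3.377 CPM in AREL1fl/fl replicates 1 to 4. Its log2 fold change was 0.48 (SE 0.161, edgeR adjusted p = 0.0183), but the groups overlapped, and the call was lost without AREL1fl/fl replicate 3 (log2 fold change 0.32, adjusted p = 0.11), without AREL1HSC-KO replicate 3 (adjusted p = 0.0503) and with reverse-strand counts (adjusted p = 0.114), over a range of 0.000762 to 0.114. Replicate 3 of AREL1fl/fl was the lowest library, and the difference between the fold changes of Fbxo36 and Trip12 was not tested. Beside Hecw2, the kinase gene Stk17b fell to 41.1 ± 1.64 CPM in AREL1HSC-KO, against 46.81 ± 2.66 CPM in AREL1fl/fl (log2 fold change -0.19, edgeR adjusted p = 0.00119, n = 4 each). Its groups did not overlap, as in 31.4% of the 420 genes. Gtf3c3, a subunit of the RNA polymerase III factor TFIIIC on the other side of Hecw2, stood at 62.7 ± 3.26 CPM in AREL1HSC-KO and 65.31 ± 0.754 CPM in AREL1fl/fl and did not pass (edgeR adjusted p = 0.252). With reverse-strand counts Gtf3c3 did pass (log2 fold change -0.123, edgeR adjusted p = 0.0464), while forward-strand counts gave 0.00848 (adjusted p = 0.897). The remaining protein-coding neighbours were low or silent, Dnah7a with 0 reads, Dner with 8 reads in AREL1HSC-KO and 4 in AREL1fl/fl, Slc16a14 with 34 and 23, Ccdc150 with 24 and 6, and C130026I21Rik with 69 and 16, and none of them was kept for the test. After scaling, C130026I21Rik stood at 0.4617 to 1.052 CPM in AREL1HSC-KO and 0.057 to 0.4006 CPM in AREL1fl/fl. Ccdc150 stood at 0.1558 to 0.3681 CPM and 0 to 0.1156 CPM in the same groups. The groups thus did not overlap in these genes, but did in Dner and Slc16a14, and no difference was tested. How often groups do not overlap among rows left out by the filter was not counted.

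No E2 of the HECT partner list had a row, but 3 other E2 genes did, and none passed the test. They are named because they are the E2 genes present. Ube2f, an E2 for the ubiquitin-like modifier NEDD8, stood at 67.97 ± 3.26 CPM in AREL1HSC-KO and 65.68 ± 2.59 CPM in AREL1fl/fl (95% interval of the difference -1.8% to 9.54%, edgeR adjusted p = 0.296). Ube2t, the E2 of the Fanconi anaemia pathway, stood at 28.51 ± 0.773 CPM in AREL1HSC-KO and 30.96 ± 1.63 CPM in AREL1fl/fl (-14% to -1.32%, edgeR adjusted p = 0.0546). Ube2w, which attaches ubiquitin to protein N termini, stood at 41.66 ± 1.27 CPM in AREL1HSC-KO and 41.49 ± 1.69 CPM in AREL1fl/fl (-5.54% to 6.35%, edgeR adjusted p = 0.953).

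In the wider lists, which hold ubiquitin system genes and 10 genes of reported TRIP12 or HECW2 substrates, 26 of 346 genes had a row and 24 were kept, Parp1 being the 1 substrate. Of these 24, 3 rose (genes higher in AREL1HSC-KO were 18.3% of all tested) and 3 fell (19.3% of all tested), and 18 did not pass. Of the 6 that passed, 5 are named here. The median log2 fold change of the 24 was -0.015, against 0.0034 over all 420 genes. The RING ligase list had 4 genes, of which Neurl3 and the RNA-binding ligase gene Rc3h1 (Roquin-1) rose and Mdm4 fell. Rc3h1 stood at 93.98 ± 2.99 CPM in AREL1HSC-KO and 87.65 ± 2.96 CPM in AREL1fl/fl (log2 fold change 0.10, edgeR adjusted p = 0.0144), with overlapping groups. Mdm4 stood at 132.4 to 140.1 CPM in AREL1HSC-KO and 155.2 to 171.8 CPM in AREL1fl/fl (log2 fold change -0.26, edgeR adjusted p = 5.26e-08, range over settings 4.04e-25 to 1.79e-05). Neurl3 stood at 7.9 to 9.531 CPM in AREL1HSC-KO and 1.71 to 4.235 CPM in AREL1fl/fl (log2 fold change 1.61, edgeR adjusted p = 2.76e-08). Neither gene's groups overlapped.

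The 2 deubiquitinase genes with a row were Yod1, an OTU-type enzyme that works with the ATPase VCP, and Vcpip1. Yod1 fell to 17.58 ± 1.22 CPM in AREL1HSC-KO, against 21 ± 2 CPM in AREL1fl/fl (log2 fold change -0.25, edgeR adjusted p = 0.00398), although replicate 4 of AREL1fl/fl (18.14 CPM) lay within the AREL1HSC-KO range. Cullin-RING and COP9 signalosome genes made up 12 of the 24, and Fbxo36 was the 1 that passed. The most abundant of the others were Cul3, with 214.9 ± 7.24 CPM in AREL1HSC-KO and 225.1 ± 5.69 CPM in AREL1fl/fl (edgeR adjusted p = 0.0546), the COP9 subunit genes Cops8 and Cops5, and Dtl, a substrate receptor of CUL4 ligases. Cops8 had 135.1 ± 1.11 CPM in AREL1HSC-KO and 137.9 ± 3.06 CPM in AREL1fl/fl, and Dtl 123.3 ± 2.41 and 119.6 ± 5.58 CPM. Ubxn4, an adaptor of VCP at the endoplasmic reticulum, had 175.9 ± 2.88 CPM in AREL1HSC-KO and 180.8 ± 4.84 CPM in AREL1fl/fl, and Parp1, a DNA damage sensor reported as a TRIP12 substrate in human cells, had 207.7 ± 2.44 and 211.4 ± 3.1 CPM. Without replicate 4 of AREL1fl/fl 11 of the 24 genes passed, 45.8% beside 44.6% of all genes in that fit, among them the 5 named above, with log2 fold changes of 1.84 for Neurl3, 0.61 for Fbxo36, 0.12 for Rc3h1, -0.29 for Mdm4 and -0.32 for Yod1, and with upper-quartile scaling 10 did, 41.7% beside 41% of all genes. Cul3, Cops5, Dtl, Ube2f and Ube2t each passed under at least 1 other setting, with a lowest edgeR adjusted p of 0.00339 for Cul3, 0.014 for Cops5, 0.0133 for Dtl, 0.025 for Ube2f and 0.0231 for Ube2t. The call of Rc3h1 was lost under some settings, with adjusted p between 0.000371 and 0.134, among them the fits without AREL1HSC-KO replicate 2 (edgeR adjusted p = 0.0882), without AREL1fl/fl replicate 1 (0.0688) and without AREL1fl/fl replicate 3 (0.0525).

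**Figure D4:**
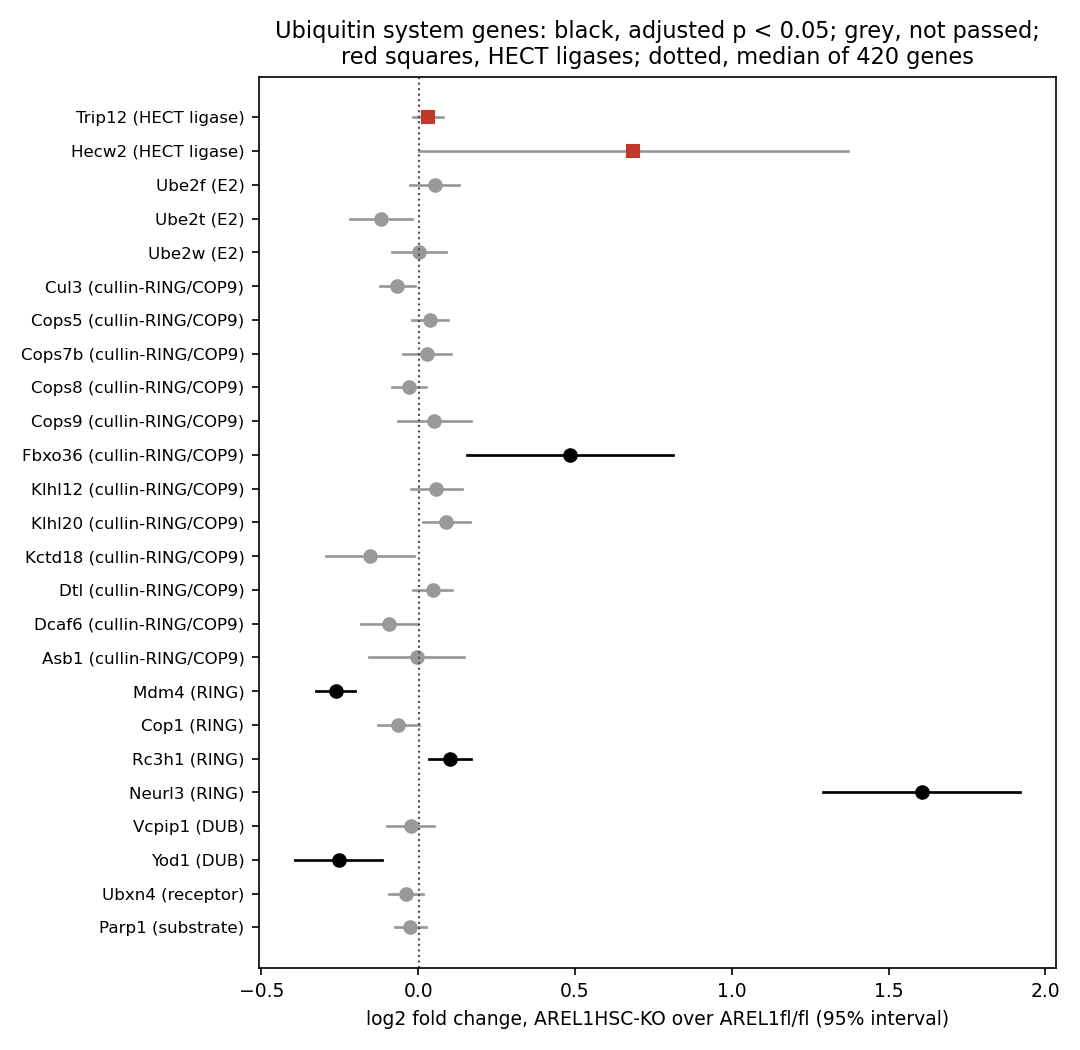
Log2 fold change of AREL1HSC-KO over AREL1fl/fl with its 95% interval for Trip12 and Hecw2 (red squares) and 23 other genes of the ubiquitin lists (circles; black past an adjusted p of 0.05, grey not), with the class of each gene in brackets and a dotted line at the median of 420 genes. Trip12 has one of the narrowest intervals and Hecw2 the widest, and 5 circles are black, 3 to the right of the line and 2 to the left.

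The pattern of Trip12 over the 8 libraries was compared with that of the other 320 genes at 5 CPM or more, as the root mean square difference between log2 levels centred on each gene's mean. Among the 5 closest were Ints7, an Integrator subunit gene (0.0203), the nucleoside kinase gene Uck2 (0.0217), Ppp1r15b, which encodes a subunit of an eIF2-alpha phosphatase (0.0227) and Cops5 (0.0242), against a median of 0.0841 over the genes compared. Since Trip12 differed little between genotypes, the choice by pattern favours genes that differ little. Ints7 stood at 128.6 ± 3.19 CPM in AREL1HSC-KO and 127.4 ± 2.22 CPM in AREL1fl/fl. Cops5 stood at 133.8 ± 2.46 CPM in AREL1HSC-KO and 130.4 ± 2.69 CPM in AREL1fl/fl. For Hecw2 the nearest of 321 genes were Atp1b1 (0.328), Stradb (0.333), Klf7 (0.339), Sulf1 (0.354) and Zranb3 (0.358), against a median of 0.458. Since Hecw2 had the higher mean in AREL1HSC-KO, the choice by pattern favours genes of that direction. Atp1b1, a sodium pump subunit gene, stood at 44.37 ± 1.5 CPM in AREL1HSC-KO and 32.85 ± 1.62 CPM in AREL1fl/fl. Hecw2 itself varied between libraries, with coefficients of variation of 28.4% in AREL1HSC-KO and 33.4% in AREL1fl/fl where counting error alone gives 24.4% and 34.8% at the mean reads of the same groups.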

How the data were processed

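Stellate cells were isolated by pronase and collagenase digestion and a gradient, and libraries came from a stranded mRNA kit, per the labels' protocols. In the gene rows, however, reverse over forward reads were 0.985 to 1.02, so the counts do not separate the strands. The reason was not tested, and a fit on 1 strand column uses only a part of the same reads. For each library the authors deposited a table of whole-number counts, either strand and each strand, as STAR writes it. Tools named in the submitters' processing notes are STAR 2.7.10a, fastp and DESeq2 1.38.0. GRCm38 and GRCm39 are both listed there, and no release of the annotation is given, so coordinates of the authors' features are not printed. The tables were read in part. Each held 1933 to 1943 complete gene rows, and in 7 of them a last line broken off was dropped. Of 1208 protein-coding genes annotated on chromosome 1, 627 (51.9%) had a row. A gene without a row was thus not read, whatever its level.

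Either-strand counts were used. Library size was the gene-assigned total derived from the summary values (a lower limit, with an upper limit 2.51% to 2.65% higher), because the rows hold part of each library. With edgeR 4.0.16 (R 4.3.3), filterByExpr, TMM and the robust quasi-likelihood test were applied to all rows. The filter asked for about 0.514 CPM, before TMM adjustment, in at least 4 libraries. Benjamini-Hochberg adjustment ran over 420 genes with a threshold of 0.05. Intervals are 95%. The test was checked on simulated data. DESeq2 1.42.0 was an alternative. All genes of the list, the ubiquitin genes that passed, the 6 most abundant others, neighbours and nearest patterns were named by rule; the E2 genes Ube2f, Ube2t and Ube2w were added after their values were seen. Some genes that the rule picked are not reported here, though they stayed in the fit and the counts. The genes and lists were chosen with earlier results of these data known. The labels give no batch, so a batch that follows genotype cannot be told apart from it. Every pair of libraries of 1 group differed by more than sampling noise, with a chi-square per degree of freedom of at least 1.38.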

Additional observations from a re-analysis of the deposited data

Results flagged for a closer look

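A library was picked out where its gap to the nearest other library of its group as a share of the group's range exceeded Dixon's 95% critical value for 4 samples. Over the 26 named genes and both genotypes 52 groups of 4 were examined, and chance gives about 1 in 20, or 2.6. In total 4 were found. Hecw2 stood at 1.068 CPM in AREL1HSC-KO replicate 3, against 0.6156 to 0.6623 CPM in the other AREL1HSC-KO libraries (gap 0.897 of the range), which is 22 reads against 12 to 17. Stk17b stood at 38.65 CPM in AREL1HSC-KO replicate 1, against 41.75 to 42.17 CPM in the others (0.881). Zranb3 stood at 21.08 CPM in AREL1HSC-KO replicate 4, against 24.08 to 24.62 CPM (0.847). Klf7 stood at 26.61 CPM in AREL1fl/fl replicate 4, against 21.49 to 21.85 CPM (0.93). No library of Trip12 was picked out.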

How the results depend on the processing

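The count of HECT ligases past the threshold was 0 in each setting tried except upper-quartile scaling and library totals alone, each of which gave 1, Trip12 (log2 fold changes 0.083 and 0.0639). With 1 library left out the log2 fold change was 0.0158 to 0.0429 for Trip12 and 0.47 to 0.864 for Hecw2, and the count of ligases stayed at 0. The number of other ubiquitin genes that passed, 6, was 10 with upper-quartile scaling (41.7%, beside 41% of all genes) and 4 to 11 with 1 library left out (16.7% to 45.8%, beside 31.1% to 44.6% of all genes), the highest without AREL1fl/fl replicate 4 in both. Upper-quartile scaling called 120 of all genes higher and 52 lower (69.8% higher, against 48.7% with TMM), and library totals alone gave 60.6% higher. Values near 0 changed sign without passing the threshold. With upper-quartile scaling the log2 fold changes were 0.0262 for Parp1, 0.0112 for Ubxn4 and 0.0214 for Cops8; with library totals 0.00703 for Parp1 and 0.00244 for Cops8; with reverse-strand counts 0.0271 for Parp1 and -0.0334 for Ints7; with forward-strand counts -0.0204 for Ube2w, -0.0395 for Uck2 and 0.00848 for Gtf3c3. Leaving out 1 library gave -0.015 to 0.0316 for Ube2w, -0.00195 to 0.0234 for Ints7 and -0.0157 to 0.0162 for Uck2. Apart from the shift of all genes shown beside the scalings, the cause was not tested. The upper limit of library totals was added after seeing the data and left the calls at 0 ligases and 6 other genes. Samples of the same number did not deviate together (correlations of -0.164 to 0.13 over the 4 numbers, with 0 of 8 libraries closest to their own number), so the numbers are not taken as pairs. With the replicate block 0 ligases, 7 other ubiquitin genes and 150 of all genes passed, against 158, and the log2 fold changes were 0.0321 for Trip12 and 0.684 for Hecw2. Depth limits Hecw2, at 5 to 22 reads per library, and it was not kept in either strand column.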
